A study of Mus musculus with 4 samples.

Results

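The genes followed here, 10 in number, act in mitochondrial shape and movement, in mouse adult neural stem cells: the fusion genes Mfn1, Mfn2 and Opa1, the fission genes Dnm1l, Fis1, Mff and Mief1, the transport genes Rhot1 and Rhot2, and Gdap1, an outer membrane gene tied to fission. They were taken by symbol from the GENCODE M21 annotation, and all 10 were found among the 25261 gene identifiers of the series. Gdap1 entered because it was already known to be higher in this same comparison, so its difference, with its error and its call, is given only as a description and is not used as evidence. The other 9 were added by function.

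Mitochondria form a network that is remodelled by joining and dividing. Mitofusins join outer membranes and Opa1 joins inner membranes, while the dynamin Dnm1l is recruited to the surface by adaptors and constricts the organelle. Miro proteins, the products of Rhot1 and Rhot2, link mitochondria to motors on microtubules. In the adult brain, the shape of the network is known to change as stem cells leave quiescence and become neurons.

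RNA was sequenced from stem cells of C57BL/6 mice aged 8 weeks. In the ctrl group (n = 2) the lentivirus carried a scramble hairpin, and in the shOGT group (n = 2) it carried a hairpin against mouse Ogt, the gene of the enzyme that adds O-GlcNAc sugars to proteins inside the cell. All 4 libraries thus came from infected cells; neither the hairpin sequence nor the promoter that drives it was stated. The labels do not say whether replicates were separate cultures, so p-values measure the spread between these libraries, which may be technical.

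The values are the deposited signal, which behaves as reads per gene divided by 1 factor per library and corresponds to 15697508 to 17753976 reads in each library. The ctrl libraries had an Ogt signal of 4112 and 4137, and the shOGT libraries one of 3379 and 3516, so that the mean fell by 16.4%. All 14 neural stem cell markers of the list used were measured, Vim highest at a mean of 31049 in ctrl. Among them Fabp7, Lhx2 and Id1 fell, with log2 fold changes of -0.49, -0.56 and -0.64 (Lhx2 and Id1 not called in DESeq2, Lhx2 not without ctrl 2, and Id1 not at a pseudocount of 0.5). Of all genes tested 2.9% fell, and this is not a full account of the list. The 6 microglial markers measured all averaged under 10, with P2ry12 highest. Genes were compared with limma on log2(signal + 1), and a gene is called, or said to rise or fall, at a Benjamini-Hochberg adjusted p under 0.05 over the 21829 genes tested. By that rule 427 genes were higher and 633 lower, so that higher genes made up 40.3% of the calls, or 50.3% after rescaling to equal totals. These calls depend on the analysis. In limma with quantile normalization, without a filter or without the variance trend, and in edgeR on whole reads, 0 genes were called, with 2763 to 4302 at an unadjusted p under 0.05. Leaving out 1 library gave 0 calls in each of 4 cases when the genes tested were kept as they were (2484 to 3389 at an unadjusted p under 0.05). When the filter was set again on the 3 libraries left, 1165 genes were called without ctrl 1 and 1220 without ctrl 2, but 0 without shOGT 1 or shOGT 2 (3229 and 3186 at an unadjusted p under 0.05). Every call named below, that of Ogt included, was lost wherever 0 genes were called.

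Gdap1 encodes a tail-anchored outer membrane protein with a fold like that of glutathione transferases, and mutations in it cause the peripheral neuropathy Charcot-Marie-Tooth disease. Its gene (ENSMUSG00000025777) is protein-coding and lies on the plus strand of chromosome 1, at 17145362 to 17164271 on GRCm38, and none of its exons overlap those of another annotated gene. Its signal was 69.8 and 52.6 in ctrl and 131 and 118 in shOGT. Both shOGT libraries lay above both ctrl libraries, and the mean was 2.03 times as high, 124 ± 9.15 against 61.2 ± 12.2 (SD, n = 2 each).

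**Figure D1:**
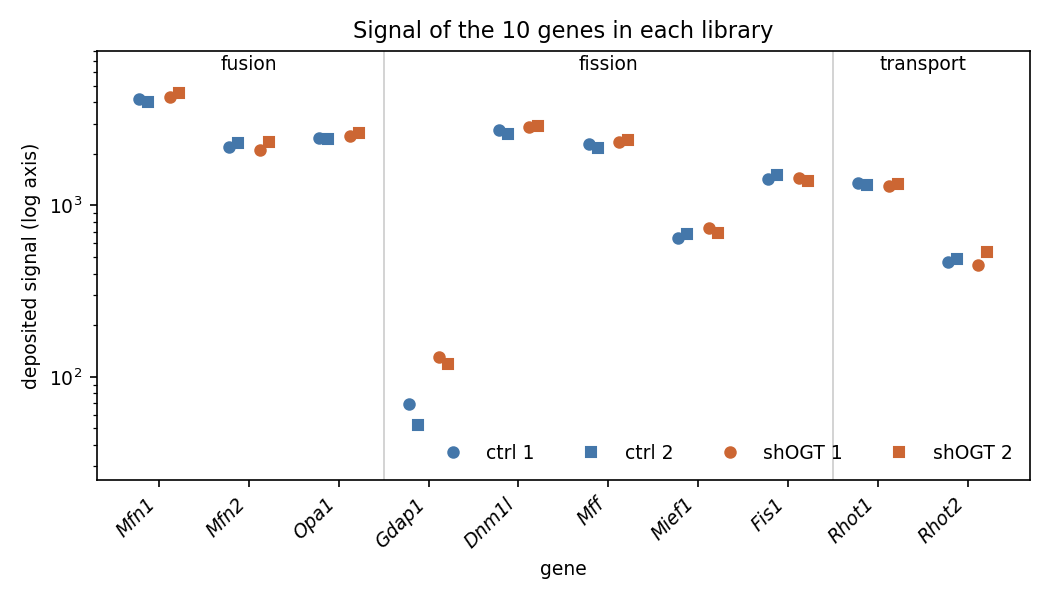
Deposited signal (log axis) of the 10 genes in each library, with ctrl in blue, shOGT in orange, replicate 1 as circles and replicate 2 as squares, grouped by role. Gdap1 is the lowest gene, at 52.6 and 69.8 in ctrl and 118 and 131 in shOGT; the other 9 differ little between groups.

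The log2 fold change of Gdap1 was 1.02 ± 0.19 (SE). Leaving out each library in turn gave 0.82 to 1.22, the lowest value being that without ctrl 2. The gene rests on few reads: 70 and 53 in ctrl and 123 and 125 in shOGT. The exact Poisson 95% intervals of these counts were 54.6 to 88.4 and 39.7 to 69.3 in ctrl and 102 to 147 and 104 to 149 in shOGT, and cover counting error only. The other 9 genes had 422 to 4836 reads in each library. Among the 2455 tested genes with a mean signal of 50 to 200, 12, Gdap1 included, had a log2 fold change at least as high, and the median absolute value was 0.18. Since Gdap1 was selected for this difference and the band was set after its level was seen, its place there is only a description.

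**Figure D2:**
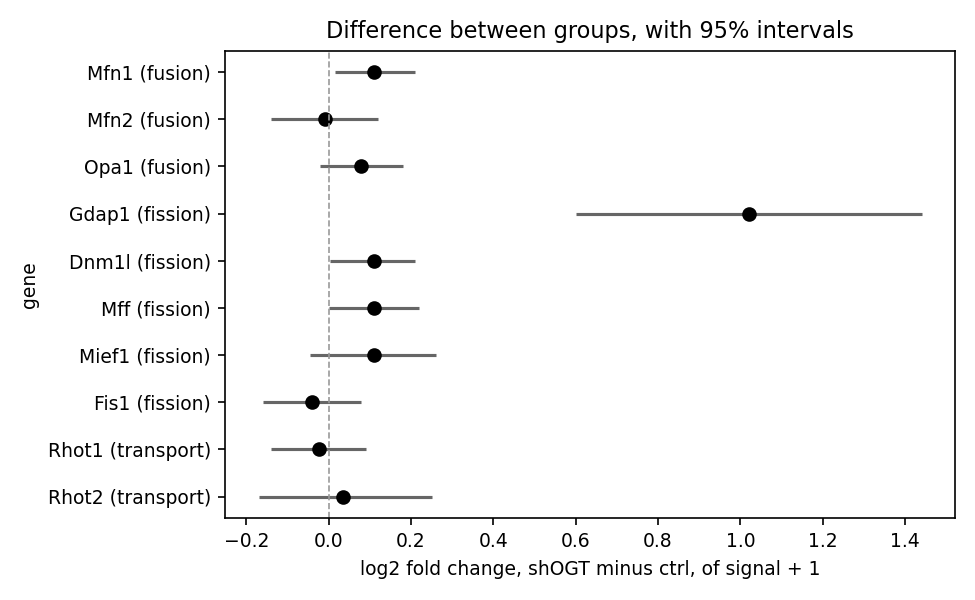
Log2 fold change of signal + 1, shOGT minus ctrl, for the 10 genes, with points for limma's estimate and bars for its 95% interval (n = 2 libraries a group). The other 9 genes lie between -0.04 and 0.11, and Gdap1, which was selected for this difference, at 1.02.

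Of the 10 genes, 1 was called, Gdap1, in the higher direction, and 0 in the lower, where 4.86% of all genes tested were called, 1.96% higher and 2.9% lower. DESeq2 on whole reads also called Gdap1 alone, where it called 3.3% of all genes. Since Gdap1 was selected in this comparison, nothing is read from that count. None of the other 9 was called by limma, and 3 of them (Mfn1, Dnm1l and Mff) had an unadjusted p under 0.05, as had 19.3% of all genes. That share is not matched in level: all 9 have a mean of at least 400, where 10.9% of genes were called. The ratios of means of these 9 genes ran from 0.972 to 1.08, and their log2 fold changes had a median of 0.079 beside 0.001 over all genes.

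In 5 of these 9, namely Mfn1, Opa1, Dnm1l, Mff and Mief1, both shOGT libraries lay above both ctrl libraries, and in 0 of the 9 below. Over all genes tested, 25% had shOGT wholly above ctrl. After rescaling to equal totals the same 5 lay above, beside 27.1% of all genes. Among the 7827 genes with a mean of at least 400, a level that all 9 reach, the share was 28.6%, and 34.1% lay wholly below. The bands of mean signal used here were chosen after the values had been seen.

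**Figure D3:**
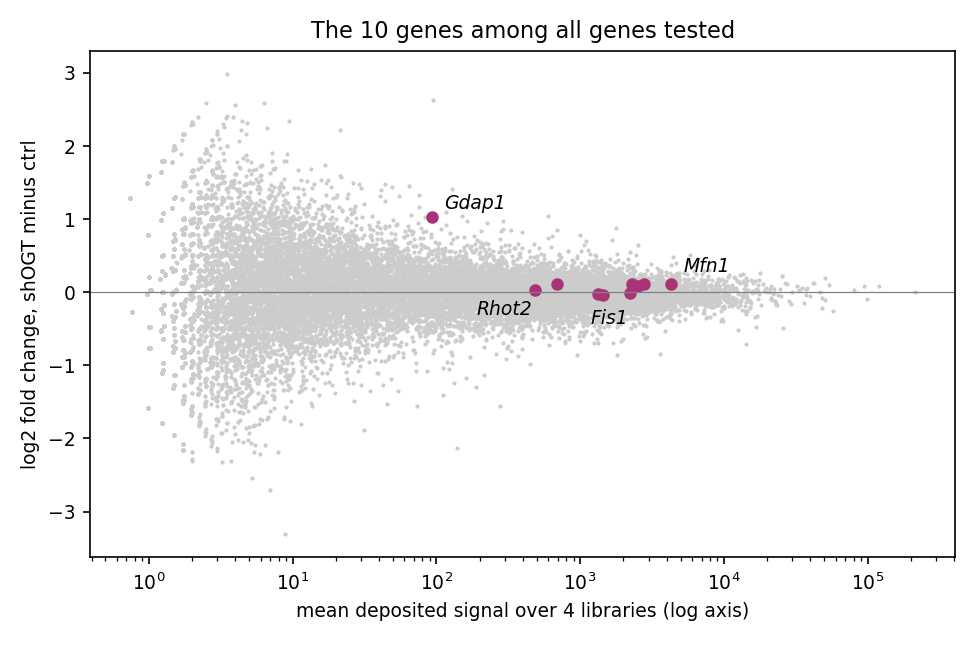
Log2 fold change, shOGT minus ctrl, against the mean deposited signal over the 4 libraries (log axis) for the 21829 genes tested (grey), with the 10 genes in purple. Gdap1, which was selected for this difference, sits at the upper edge of the genes of its level. The other 9 lie near 0 among genes of higher signal.

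Among the fusion genes, Mfn1, an outer membrane mitofusin (chromosome 3, 32529465 to 32579239, plus strand), was at 4163 and 4037 in ctrl and 4302 and 4559 in shOGT. Its log2 fold change was 0.11 ± 0.04 (limma adjusted p = 0.192), with shOGT above ctrl and no overlap. Mfn2, the second mitofusin, which also tethers mitochondria to the endoplasmic reticulum (chromosome 4, 147873599 to 147904704, minus strand), was at 2180 and 2300 in ctrl and 2118 and 2340 in shOGT. The shOGT values of Mfn2 enclosed those of ctrl, with a log2 fold change of -0.0086 and a 95% interval of -0.14 to 0.12 (adjusted p = 0.96). Its sign was positive after rescaling the libraries (0.0081), after quantile normalization (0.0054) and in edgeR (0.00078).

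Opa1, the dynamin that joins inner membranes and keeps cristae narrow (chromosome 16, 29579334 to 29654884, plus strand), was at 2484 and 2433 in ctrl and 2540 and 2656 in shOGT. The groups did not overlap, and the log2 fold change was 0.079 ± 0.04 (adjusted p = 0.376). The mitofusins were further compared per kb of merged exon. The ratio of Mfn1 to Mfn2 was 1.62 and 1.49 in ctrl and 1.73 and 1.66 in shOGT, higher in both shOGT libraries by a small margin. It is 1 of 6 ratios between these genes that were formed after the data had been seen, and none was tested. The ratios of Gdap1 to Mfn2 and of Mff to Fis1 were also higher in both shOGT libraries. In those of Rhot1 to Rhot2, Dnm1l to Opa1 and Mff to Mief1 the groups overlapped.

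Among the fission genes, Dnm1l, the dynamin that constricts mitochondria and peroxisomes (chromosome 16, 16312230 to 16358959, minus strand), was at 2774 and 2600 in ctrl and 2865 and 2921 in shOGT. Its log2 fold change was 0.11 ± 0.05 (adjusted p = 0.244), with a 95% interval of 0.0031 to 0.21. Mff, an adaptor that recruits Dnm1l to the outer membrane (chromosome 1, 82724890 to 82752394, plus strand), was at 2284 and 2152 in ctrl and 2358 and 2423 in shOGT (0.11 ± 0.05, adjusted p = 0.252). Both genes were higher in both shOGT libraries, and neither passed the test.

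Mief1, which encodes the Dnm1l adaptor MiD51 (chromosome 15, 80234018 to 80253371, plus strand), was at 646 and 686 in ctrl and 743 and 695 in shOGT. Its log2 fold change was 0.11 ± 0.07 (adjusted p = 0.432), and the nearest libraries of the groups, ctrl 2 and shOGT 2, were close. Fis1, an outer membrane protein long studied as a fission receptor (chromosome 5, 136953275 to 136966234, plus strand), was at 1426 and 1504 in ctrl and 1451 and 1397 in shOGT. The groups of Fis1 overlapped (-0.04 ± 0.05, adjusted p = 0.74), so that Fis1 and the adaptors Mff and Mief1 had estimates of opposite sign; these differences between genes were not tested.

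The groups overlapped in both transport genes. Rhot1, which encodes Miro1, a calcium-binding GTPase of the outer membrane (chromosome 11, 80209019 to 80267907, plus strand), was at 1356 and 1321 in ctrl and 1296 and 1337 in shOGT. The log2 fold change of Rhot1 was -0.024, with a 95% interval of -0.14 to 0.091 (adjusted p = 0.857). Rhot2, which encodes Miro2 (chromosome 17, 25838457 to 25844851, minus strand), was at 468 and 490 in ctrl and 449 and 537 in shOGT. The shOGT libraries of Rhot2 spread more widely than the difference between groups (0.036 ± 0.09, adjusted p = 0.886), and the estimate was -0.093 without shOGT 2.

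Shared reads are possible for 4 of the 10 genes where exons overlap those of another gene. For Rhot2, 29.4% of the exon length overlaps Gm20683 and 1.82% overlaps Wdr90, both on the same strand. For Mief1, 2.63% overlaps AC140267.1 on the same strand. For Dnm1l and Mff, 4.67% and 2% overlap genes on the opposite strand, Gm49521 and C430014B12Rik.

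Between genes, levels were compared as signal per kb of merged exon, averaged over the 4 libraries. Fis1 was highest at 843, followed by Mfn1 at 698, Dnm1l at 536, Mfn2 at 430, Opa1 at 321, Mff at 236, Rhot1 at 179, Rhot2 at 109 and Mief1 at 85.4. Gdap1 was lowest at 12, or 7.92 ± 1.58 in ctrl and 16.1 ± 1.18 in shOGT (SD, n = 2). Fis1 thus stood at the 94th percentile of the coding genes tested and Gdap1 at the 24.8th. The ctrl values of neighbours in this order did not overlap. The order depends on the length used: with the longest transcript in place of merged exons, Mff moved from rank 6 to rank 4, ahead of Mfn2 and Opa1, and Gdap1 remained at rank 10.

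**Figure D4:**
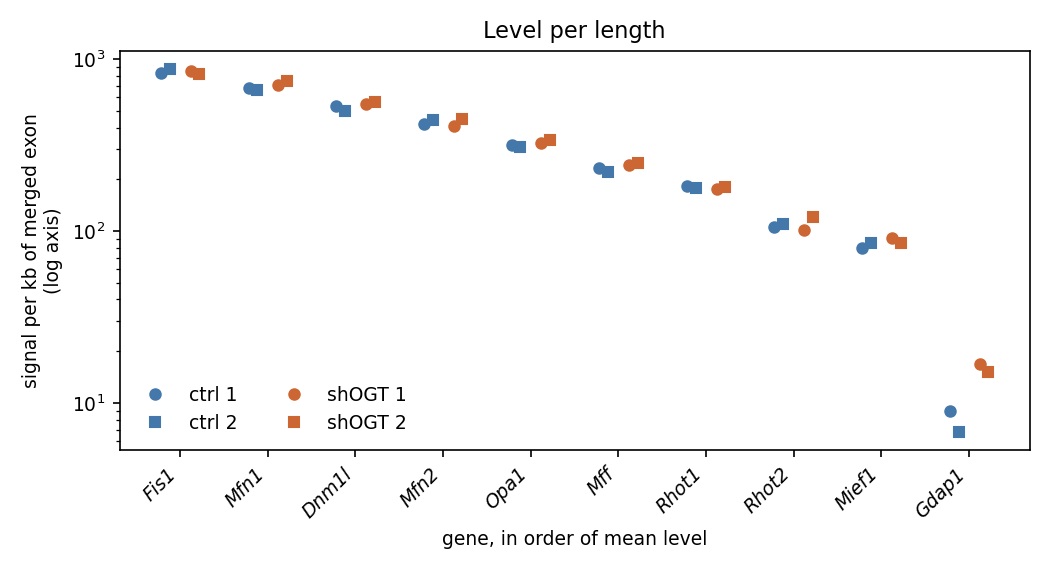
Signal per kb of merged exon (log axis) of the 10 genes in each library, in order of the mean; colours and symbols stand for groups and replicates. Levels run from 843 for Fis1 to 12 for Gdap1, and Gdap1 remains the lowest gene in both groups.

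Many genes of mitochondrial proteins are known to carry promoter sites for nuclear respiratory factor 1 (NRF1) and for ETS factors such as GABPA. Since 9 of these 10 genes differed little between groups, promoter sequences are shown to place them among promoters at large. Promoters from RefSeq on GRCm38.p6, each from 250 bases before to 50 bases after a start, were in the table for 9 of the 10 genes, with 14 starts; Gdap1 was not matched. Both strands were searched for the NRF1 consensus, a palindrome-like run of GCGC on either side of a pair of central bases, and for the ETS letters CCGGAAGT, which were not found in the same promoters. These and the 3 further motifs below were picked with the promoters in view. The windows below run 5′ to 3′ on the plus strand, that of each gene, with 20 bases on either side, and capitals mark the match.
Opa1, NRF1, chr16:29579255-29579304: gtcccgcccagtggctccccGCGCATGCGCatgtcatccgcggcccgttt
Mfn1, ETS, chr3:32529418-32529465: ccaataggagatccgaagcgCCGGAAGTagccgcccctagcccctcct
Fis1, ETS, chr5:136953237-136953284: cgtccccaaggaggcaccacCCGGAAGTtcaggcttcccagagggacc
Mief1, ETS, chr15:80233995-80234042: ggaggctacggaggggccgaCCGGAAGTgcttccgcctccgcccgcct

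The NRF1 consensus was held by 1 of the 14 promoters of these genes, that of Opa1, and by 4.6% of all 32851 promoters of the same length. The ETS letters were held by 4 of the 14, from 3 genes (Mfn1, Fis1 and Mief1), and by 3.89% of all. Mief1 held them again downstream of its start, and a second annotated start of Fis1 held them too. The cAMP response element TGACGTCA, the E-box CACGTG and the Rbpj letters GTGGGAA were also searched on both strands. They were held by 0, 0 and 1 of the 14 (Dnm1l), and by 1.79%, 7.15% and 6.38% of all. A match is a description of letters, and binding was not measured.

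The wider set of fusion and fission factors was read from the same fit. Of 27 tested, 2 rose and 1 fell, with a median log2 fold change of 0.028 beside 0.001 over all genes. The calls made up 11.1% of this list, beside 4.86% of all genes and 10.9% of those with a mean of at least 400. The share of 10.9% is not matched in level to this list or to those set beside it below. Each of them also holds genes with a mean under 400, here the called Gdap1l1 and Inf2. Gdap1l1, the paralogue of Gdap1, rose by 0.65 ± 0.13 on the log2 scale (adjusted p = 0.0217), from 135 and 121 in the ctrl libraries to 190 and 212 in the shOGT libraries. Inf2, a formin that builds actin filaments where the endoplasmic reticulum meets a dividing mitochondrion, rose from 190 ± 1.42 to 270 ± 7.41 (0.50, adjusted p = 0.0229), and was not called in DESeq2.

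Prelid1, which carries phosphatidic acid between the mitochondrial membranes, fell from 2774 ± 44.2 to 2023 ± 211 (-0.46, adjusted p = 0.00598). Exons of Rab24 on the opposite strand overlap 46.1% of its exon length, and whether counting used strand is not given in the sources used here. The 2 genes that rose had a mean of at most 270 in either group. The abundant regulators Mtch1, Dnm2 and Mtch2, picked after their values were seen, measured -0.054, -0.029 and 0.066. A link between level and difference was not tested.

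Of 22 motors, adaptors and anchors of mitochondrial transport, 2 rose and 0 fell, with a median of 0.0056. That is 9.09% called, beside 4.86% of all genes and 10.9% of those with a mean of at least 400, a level that Kif5a does not reach. In limma 6 had an unadjusted p under 0.05, as had 19.3% of all genes. Kif5a, a neuronal kinesin heavy chain, was at 136 and 134 in ctrl and 212 and 252 in shOGT (0.77 ± 0.13, adjusted p = 0.0103). The other heavy chains did not pass, with Kif5b, the ubiquitous form, at -0.046 and Kif5c at -0.16. For both Kif5b and Kif5c the shOGT libraries lay wholly below ctrl, as for 24.3% of all genes tested. Trak1, the adaptor that joins Miro proteins to kinesin, rose from 2377 ± 58.2 to 2709 ± 66.3 (0.19, adjusted p = 0.0449), and was no longer called at a pseudocount of 0.5, in DESeq2 or without ctrl 2, while Trak2 measured 0.16 (adjusted p = 0.0826).

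Cristae are the folds of the inner membrane. Of 15 genes of the MICOS complex, the prohibitins and their partners, 0 rose and 2 fell, with a median of -0.05. That is 13.3% called, beside 4.86% of all genes and 10.9% of those with a mean of at least 400. Immt (mitofilin), the central scaffold of MICOS, was at 3541 and 3536 in ctrl and 2975 and 3125 in shOGT (-0.21 ± 0.04, adjusted p = 0.0225). Chchd3, which binds Immt within MICOS, fell from 2686 ± 38.3 to 2310 ± 1.32 (-0.22, adjusted p = 0.0213), and was not called without ctrl 1. Apoo, a further MICOS subunit, measured -0.24 (adjusted p = 0.0893). The inner membrane fusion gene Opa1 measured 0.079, and its difference from the MICOS genes was not tested.

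**Figure D5:**
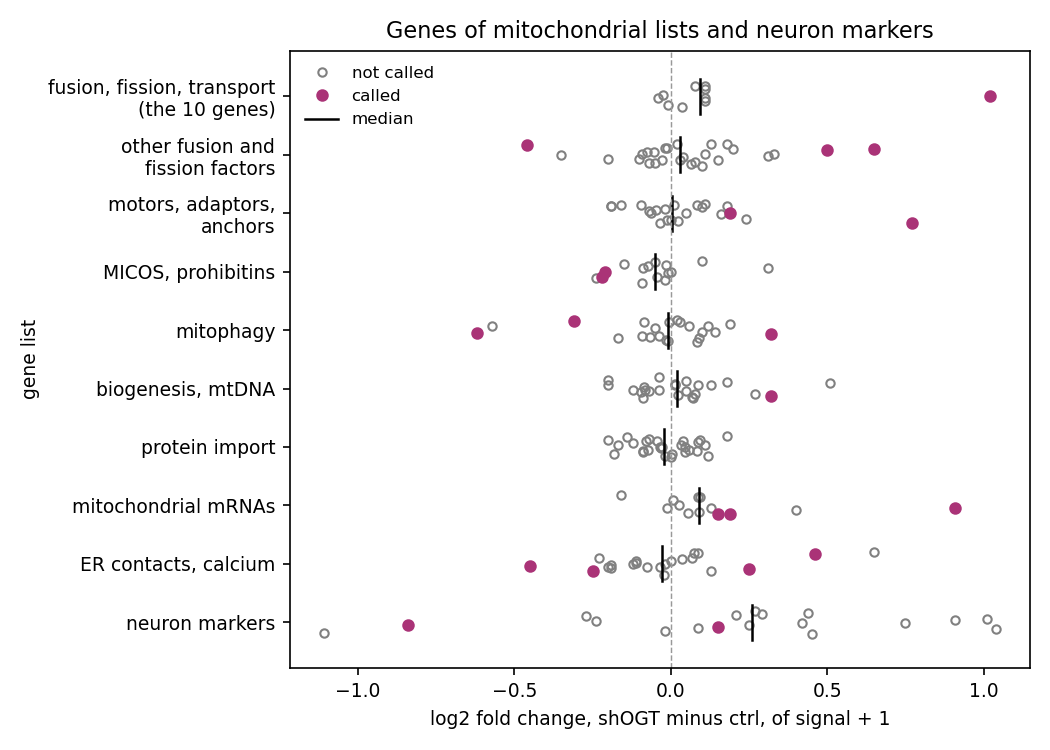
Log2 fold change, shOGT minus ctrl, of every tested gene in the mitochondrial lists and in the neuron marker list, 1 row a list; filled purple points were called, open points were not, and the bar is the median (vertical scatter only separates points). Medians of the mitochondrial lists lie between -0.05 and 0.093, and Gdap1 is the farthest point to the right in the top row.

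Of 22 mitophagy genes, 1 rose and 2 fell, with a median of -0.0073 that was 0.0093 with rescaled totals. That is 13.6% called, beside 4.86% of all genes and 10.9% of those with a mean of at least 400, a level that Optn does not reach. Calcoco1, an autophagy receptor, rose by 0.32 (adjusted p = 0.0138), while Fundc2, an outer membrane protein, and Optn, a receptor that brings ubiquitin-tagged mitochondria to autophagosomes, measured -0.31 (adjusted p = 0.0128) and -0.62 (adjusted p = 0.0359; not called in DESeq2). Of 24 genes of biogenesis and mitochondrial DNA upkeep, 1 (4.17%) rose and 0 fell. It was Polrmt, the mitochondrial RNA polymerase, at 454 and 469 in ctrl and 565 and 586 in shOGT (0.32 ± 0.07, adjusted p = 0.0356; 0 of the list called in DESeq2 or without ctrl 1). Twnk, the mitochondrial helicase, measured 0.27 (adjusted p = 0.0779), and Gabpb1, a partner of GABPA, -0.20 (adjusted p = 0.121).

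Of the 13 mRNAs encoded in the mitochondrial genome, 3 rose and 0 fell, with a median of 0.089. Of all genes 4.86% were called, and 10.9% of those with a mean of at least 400, a level that mt-Atp8 does not reach. mt-Nd2 and mt-Nd6, subunits of complex I, rose by 0.19 and 0.15 (adjusted p = 0.012 and 0.0361). mt-Atp8 rose from 43.8 ± 2.98 to 83.8 ± 14.8 (0.91, adjusted p = 0.0399), but shares 21.1% of its length with mt-Atp6, which measured 0.086, and was not called in DESeq2. The mt-Atp8 value rests on few reads, 46 and 42 in ctrl and 69 and 100 in shOGT. In ctrl its mean lay far below that of mt-Co1 (214593), as did mt-Atp6 (2005) and mt-Co3 (1657). The cause of these low signals was not tested. mt-Nd6 was not called without ctrl 1 or without ctrl 2. The summed signal of the 13 was 571994 and 565569 in ctrl and 588216 and 599404 in shOGT, higher in both shOGT libraries. Of 28 tested genes of protein import, limma called 0, with 2 at an unadjusted p under 0.05, beside 19.3% of all genes. DESeq2 also called 0 of them, where it called 3.3% of all genes. edgeR called 0 genes over the whole table, so its 0 for this list carries no information. In limma, 1 import gene was called at a minimum of 10, and 1 with the replicate block. Grpel1, Dnajc19 and Tomm20 measured -0.20, -0.18 and 0.086.

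Gdap1 and Kif5a are known to be expressed strongly in neurons, and neuron markers were therefore set beside them. The heavy chain Kif5c did not rise with Kif5a, at 118 and 115 in ctrl and 111 and 98 in shOGT. Of 18 neuron markers measured of 20 listed, all tested, 1 rose (Map2, 0.15, adjusted p = 0.0313; not called without ctrl 1) and 1 fell (Gap43, a growth cone protein, -0.84, adjusted p = 0.000156). The calls made up 11.1% of the list, beside 4.86% of all genes. The median of the list was 0.26, and 9 of 18 lay wholly above ctrl and 3 wholly below, where the shares of all genes were 25% and 24.3%. Among those 9, Nefl, Nefh and Slc17a7 averaged under 10. At a minimum of 10 the median of the list was 0.21. Its summed signal was 21577 and 22507 in ctrl and 21952 and 21737 in shOGT, overlapping, with Map2 the largest part. None of the 18 was at 0 in every library. Singled out after their values were seen, Elavl3 and Syn1 averaged 482 and 246 in ctrl and 573 and 301 in shOGT, and Dcx and Elavl4, wholly below, 53.7 and 267 in ctrl and 24.2 and 222 in shOGT, none of them called. Low in all libraries were Rbfox3 at 24.9 and 17.9 in ctrl and 25.5 and 33 in shOGT, and Slc17a7 at 3.99 and 1.98 against 5.32 and 5.66. Whether more neuronal cells or more RNA of these genes per cell lay behind the values of Gdap1 cannot be told apart in bulk RNA, and the part of neuronal cells in them was not tested.

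By likeness over the 4 libraries, the 5 genes nearest to Gdap1 among 11188 named genes with a mean signal of at least 50 were Rimbp2, Cilp2, Chrnb2, Celf4 and Cpeb1. Likeness was the Euclidean distance between log2(signal + 1) profiles centred on their ctrl mean, and it was 0.241, 0.258, 0.265, 0.277 and 0.309. The log2 fold changes of these genes were 0.86, 0.93, 0.87, 0.92 and 0.84. Rimbp2 links presynaptic calcium channels to the release site, Chrnb2 is a subunit of the neuronal nicotinic receptor, Celf4 and Cpeb1 bind mRNA, and Cilp2 is a matrix protein. With 4 libraries, such a rank mostly reflects the size of the difference between the groups.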

How the data were processed

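RNA sequencing of 4 libraries gave 1 deposited signal value per gene and library. The submitters' processing notes name the build mm10; aligner, counter, annotation and normalization were not stated. Per the values the authors deposited, each signal was a whole multiple of 1 step per library (0.997, 0.992, 1.06 and 0.943; 100% within 0.01 of a step), from which whole reads were recovered; the ctrl steps are so close to 1 that an automatic check of whole reads could be made only for shOGT, and reads in ctrl rest on the multiples alone. GENCODE M21 (GRCm38) gave symbols and positions. The main test was limma 3.58.1 (R 4.3.3) with a variance trend on log2(signal + 1), for genes with a signal of at least 1 in at least 2 libraries; fold changes on this scale understate those of low genes. edgeR 4.0.16 and DESeq2 1.42.0 ran on whole reads as alternatives, beside other pseudocounts, filters and normalizations, a replicate block and left-out libraries. Libraries were first left out with the filter reapplied; keeping the genes tested was adopted after those counts had been seen, and both are given. edgeR with the block was also added after seeing the data. The limma and edgeR fits were also run on simulated data with the same dispersion for every gene, and no result given here rests on that run. Replicates differed by more than sampling noise (chi-square per gene 2.02 in ctrl and 3.33 in shOGT, where noise gives about 1). Named genes were Ogt, the 10 genes, called or lowest-p members of each list, and the 5 genes most like Gdap1; Mtch1, Mtch2, Dnm2, Kif5b, Kif5c, mt-Atp6, Rbfox3, Slc17a7, Elavl3, Elavl4, Syn1 and Dcx were added after their values were seen. The genes and lists were chosen with earlier results of these data known. A result on a marker gene is not reported here.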

Additional observations from a re-analysis of the deposited data

How the results depend on the processing

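With n = 2 libraries a group, few reads limit Gdap1 and 1 library can decide a call. In limma without a filter, with quantile normalization and without the variance trend, and in edgeR, 0 genes were called over the table, 0 of the 10 genes and 0 in each list (4302, 3998, 2763 and 4015 genes at an unadjusted p under 0.05). Leaving out 1 library was run in both of the ways given above, which differ. With the genes tested kept, chosen after the other way had been seen, calls ran from 0 to 0. With the filter reapplied, they ran from 0 to 1220 genes, 0 to 1 of the 10 genes, 0 to 4 other fusion and fission factors, 0 to 2 in transport, cristae and biogenesis, 0 to 6 in mitophagy, 0 to 5 mitochondrial mRNAs and 0 to 4 contact genes; the calls came without ctrl 1 (1165) or ctrl 2 (1220), and 0 without either shOGT library. At a minimum of 10, 1955 genes were called, with 5 other fusion and fission factors, 4 in the cristae list, 7 in mitophagy, 2 in biogenesis and 1 in import. With the replicate block, 2302 genes were called in limma and, as an alternative added after seeing the data, 2251 in edgeR; both gave 5, 4, 7, 2 and 1 in those lists, 7 mitochondrial mRNAs and 1 of the 10 genes, Gdap1. Same-numbered libraries did not deviate together (r = 0.0366 over 10790 genes), so the numbers are not taken to pair the samples. Rescaled totals called 5 mitochondrial mRNAs, a pseudocount of 0.5 and DESeq2 called 1 transport gene, and DESeq2 called 0 biogenesis genes. The cause of these changes was not tested. Gdap1 was called in 8 of the 18 alternatives and lost in 10, with log2 fold changes of 0.82 to 1.22. Mfn2 changed sign with rescaled totals (0.0081), quantile normalization (0.0054) and edgeR (0.00078), and ran from -0.08 to 0.063 with 1 library left out (0.03 without ctrl 2); Rhot2 ran from -0.093 to 0.17. The directions of the other 8 genes held in all 18.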

Other observations

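Contacts of mitochondria with the endoplasmic reticulum, where Mfn2 and Inf2 act and fission sites form, were read from the same fit. Of 22 tested genes of such contacts and of mitochondrial calcium entry, 2 rose and 2 fell. That is 18.2% called, beside 4.86% of all genes and 10.9% of those with a mean of at least 400. The median log2 fold change of the list was -0.029 beside 0.001 over all genes. Itpr1, the calcium release channel of the endoplasmic reticulum, was at 442 and 510 in ctrl and 658 and 649 in shOGT (0.46 ± 0.08, limma adjusted p = 0.0148). Vps13c, a lipid transfer protein, rose by 0.25 (adjusted p = 0.0477; not called in DESeq2, at a pseudocount of 0.5 or without ctrl 2). Bcap31, an endoplasmic reticulum protein that binds Fis1, was at 1726 and 1806 in ctrl and 1256 and 1335 in shOGT (-0.45 ± 0.05, adjusted p = 0.0031), while Fis1 itself measured -0.04. Osbpl8, which exchanges lipids at membrane contacts, fell from 1789 ± 19.4 to 1503 ± 8.29 (-0.25, adjusted p = 0.0174).

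Markers of other cells were read from the same fit. Of 12 astrocyte markers, 1 rose (Glul, 0.43) and 3 fell (Slc1a2, -0.63; Aldh1l1, -0.19; Gja1, -0.20, not called without ctrl 1), where 4.86% of all genes were called, with Slc1a3 the highest at -0.08 and not called. Of 11 tested oligodendrocyte lineage markers, 0 rose and 2 fell (Pdgfra at -1.13 and Gpr17 at -0.88), beside the same 4.86% of all genes. Olig1, the highest of that list, measured 0.041. Of 9 vascular and 6 ependymal markers, limma called 0, with Acta2 at -0.13 and Foxj1 at 0.26, the highest of each list. The part of these cells in the values of the 10 genes was not tested.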
